A study of Homo sapiens with 6 samples.

Results

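The transcripts of 9 genes that drive cells from G1 into S phase were followed in HCT116 cells with and without oxaliplatin. The genes are the D-type cyclins CCND1, CCND2 and CCND3, the E-type cyclins CCNE1 and CCNE2, their kinases CDK4, CDK6 and CDK2, and the phosphatase CDC25A. They were taken by symbol from a table of 27942 genes, in which each of the 9 symbols had a single row. HCT116 is an established line from a human colorectal carcinoma, which the study's methods give as wild-type for p53 and mutated for CTNNB1. The untreated group (NT) held 3 libraries from cells whose treatment label is none, and the treated group (OXA) held 3 libraries from cells given oxaliplatin at 0.5 µM, a platinum drug that crosslinks DNA, for 24 h. Both groups were grown in the same serum-containing RPMI medium and were sequenced as polyadenylated RNA. The comparison of OXA with NT asks how the drug changes gene expression at the dose the study gives as its IC50. The labels call the samples replicates of the line without saying that they were separate cultures, so the p-values measure the spread between these libraries, which may be technical.

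In the textbook scheme, D-type cyclins are made in response to growth signals and bind CDK4 or CDK6, and these complexes begin to phosphorylate the retinoblastoma protein. Phosphorylated retinoblastoma protein releases E2F factors, which transcribe the E-type cyclins, CDC25A and the enzymes of DNA replication. Cyclin E with CDK2 then completes the step, helped by CDC25A, which removes inhibitory phosphates from CDK2, and opposed by p21, the CDK inhibitor encoded by CDKN1A. In intestinal cells CCND1 is known as a gene that responds to WNT and β-catenin signaling, and CDC25A protein is known to be destroyed after DNA damage through the kinases CHK1 and CHK2.

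Library totals lay between 32979521 and 40967880 counts, and the 9 genes together took 0.119% to 0.147% of each total. The epithelial genes EPCAM, CDH1, KRT8 and KRT18 summed to between 69212 and 91913 raw counts in NT and between 93648 and 113086 in OXA. The higher sum came from KRT8 and KRT18 (log2 fold changes 0.47 and 0.31), as EPCAM and CDH1 had values of -0.040 and -0.20. None of the 4 was called in the unpaired fit, and the paired fit called KRT8 and KRT18 higher and CDH1 lower (edgeR adjusted p = 0.0271, 0.0184 and 0.0408). The 4 fibroblast markers, DCN among them at 0 in every library, reached between 112 and 283 counts in NT and between 195 and 273 in OXA, nearly all from COL1A1, and the 3 endothelial markers reached at most 26 and 32. As a check of the treatment, CDKN1A was 7.60-fold higher in OXA (log2 fold change 2.93 ± 0.15 SE, edgeR adjusted p = 0.000445). The test across genes was edgeR's quasi-likelihood test on the 13727 genes that passed its filter on low counts, with Benjamini-Hochberg adjustment over all of them, and a gene was called when its adjusted p was under 0.05. Normalized counts are raw counts scaled by TMM, a method that gives each library 1 factor, and fold changes are OXA over NT.

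Of the 9 genes, 1 rose and 2 fell. CCND1 was higher in OXA, CCNE2 and CDC25A were lower, and each changed by more than 1.5-fold, as did 3.41% of all genes tested while being called. Another 5 of the 8 genes tested did not pass the threshold, and CCND2, with no counts, was not tested. Over all genes tested, 5.07% were called, 2.78% as higher and 2.29% as lower. In 5 of the 8 tested members (CCND1, CDK6, CCNE2, CDK2 and CDC25A) the ranges of NT and OXA did not overlap, OXA being higher in 2 and lower in 3. Such separation was found in 28.9% of all genes tested, with OXA higher in 14.5% and lower in 14.4%. NT and OXA libraries of the same number resembled each other in how they departed from their group means, so a paired fit, in which the library number is a block, was made too. It called 2 members higher and 3 lower, adding CDK6 and CDK2, where it called 23.0% of all genes tested, 12.1% as higher and 10.9% as lower. Without OXA library 1 no member was called higher by edgeR in the unpaired fit, and without NT library 1 there were 2, CCND1 and CDK6. These fits called 66 of 13921 and 623 of 13888 genes higher, beside 381 of 13727 with all libraries. Only CCNE2 was called lower when NT library 3 or any 1 of the OXA libraries was left out. Among all genes, 69 were then called lower without NT library 3, and 19, 32 and 67 without OXA libraries 1, 2 and 3. With all libraries this number was 315. The median log2 fold change was -0.029 over the 8 tested members and 0.023 over all genes tested, 4 members having a positive and 4 a negative value. In bulk RNA, a smaller share of cells in the phase that uses a gene and less of its RNA in each cell cannot be told apart.

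**Figure D1:**
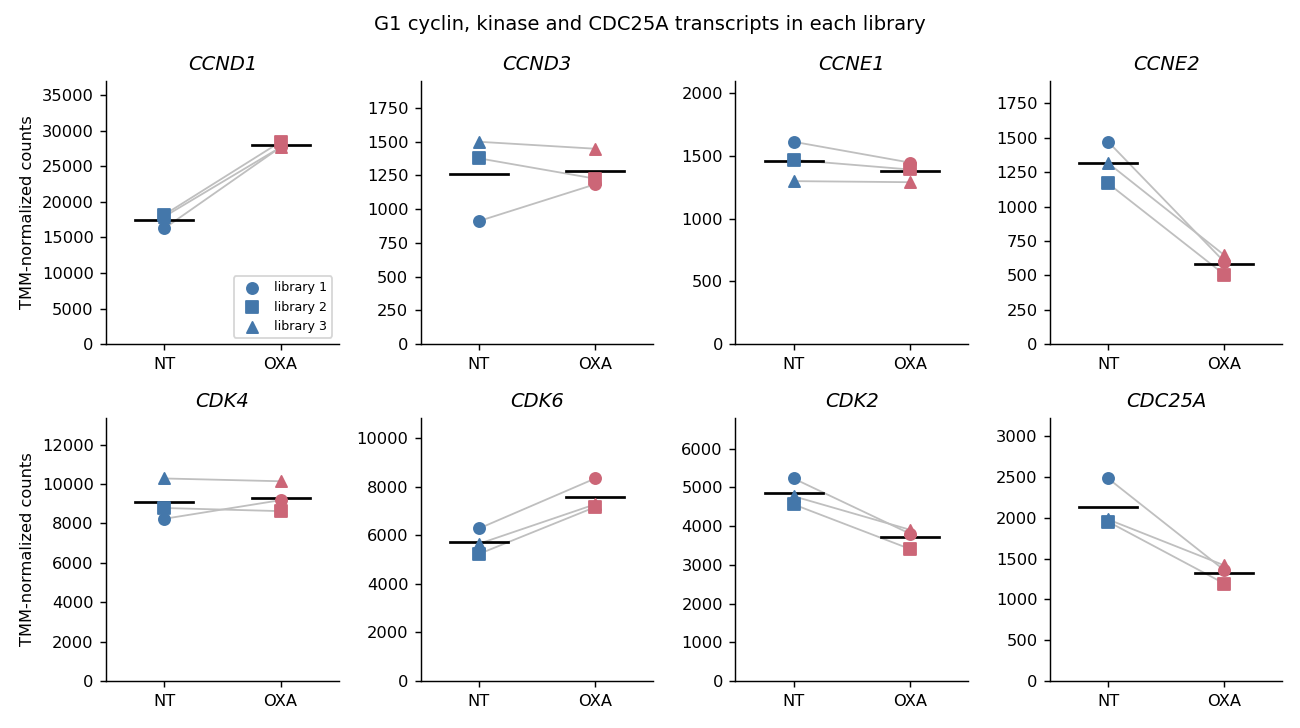
TMM-normalized counts (vertical axes, each from 0) of the 8 detected members in the 3 NT and the 3 OXA libraries. Symbols give the library number, grey lines join libraries of the same number and black bars are group means. CCND1 and CDK6 lie higher in the OXA libraries and CCNE2, CDK2 and CDC25A lower, whereas the groups overlap in CCND3, CCNE1 and CDK4.

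CCND1 (ENSG00000110092, chromosome 11 of GRCh38 from 69641156 to 69654474, plus strand) encodes cyclin D1, which activates CDK4 and CDK6. It had 16283, 18199 and 17935 normalized counts in NT libraries 1 to 3 and 27684, 28439.7 and 27672 in OXA libraries 1 to 3. All 3 treated libraries were thus above the untreated ones, and they spread less among themselves. The mean went from 17473 ± 1038 to 27932 ± 439.8 (SD, n = 3), a rise of 59.9% (log2 fold change 0.68 ± 0.084 SE, edgeR adjusted p = 0.00768). Of the 13727 genes tested, 576 had a larger log2 fold change. Between libraries of the same number the log2 difference was 0.77, 0.64 and 0.63, so each number gave a rise. The call held in 5 of 6 fits with a library left out. Without OXA library 1 the edgeR adjusted p was 0.0566, at a log2 fold change of 0.68. CCND1 shares 497 exonic bases with LTO1 on the opposite strand, and although the library kit was a stranded one, the strand setting of the counting is not given in the sources used here. LTO1 had 322 ± 16.0 normalized counts across NT and 334 ± 30.2 across OXA, and its groups overlapped.

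CCND3 (ENSG00000112576, chromosome 6 from 41934934 to 42050357, minus strand) encodes cyclin D3, the D-type cyclin best known from lymphocyte development. It had 912, 1376 and 1498 normalized counts in NT and 1184, 1226 and 1447 in OXA. NT library 1 was the lowest of the 6, and the groups overlapped. The log2 fold change was 0.026, with a 95% confidence interval from -0.41 to 0.46 (edgeR adjusted p = 0.955). A rise or fall within that interval was not excluded here. The sign of the log2 fold change turned without NT library 1, to -0.16. CCND2 (ENSG00000118971, chromosome 12 from 4269771 to 4305353, plus strand), which encodes cyclin D2, had 0 raw counts in each of the 6 libraries. A count of 0 allows up to 3 counts, which for CCND2 is a level of at most 0.0114 TMM-normalized CPM per kilobase of exon, and this limit covers counting error only. CCND2 shares 999 exonic bases on the same strand with ENSG00000285901, which was also at 0 in each library, and how the counting treated reads from shared exons is not given in the sources used here.

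The D-type cyclins can be set against each other only per length. Divided by the annotated exon length, CCND1 made up between 93.5% and 95.6% of D-type cyclin transcripts in NT and between 95.9% and 96.6% in OXA. Within libraries, the level of CCND1 was 21.6, 16.0 and 14.5 times that of CCND3 in NT and 28.3, 28.1 and 23.1 times in OXA. The groups did not overlap (log2 difference of the ratio 0.63, exact two-sided permutation p = 0.1). This p is the smallest that 3 libraries against 3 can give, so no ratio below can pass a threshold of 0.05.

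CDK4 and CDK6 encode the kinases that D-type cyclins activate. CDK4 (ENSG00000135446, chromosome 12 from 57747727 to 57756013, minus strand) had 8239, 8787 and 10289 normalized counts in NT and 9186, 8629 and 10147 in OXA. The groups overlapped, and the 95% confidence interval of the log2 fold change ran from -0.23 to 0.29 around 0.034 (edgeR adjusted p = 0.897). Its sign also changed in 3 of 6 fits with a library left out. CDK4 shares 1369 exonic bases with TSPAN31 on the opposite strand, which had 404 ± 58.1 normalized counts across NT and 383 ± 53.1 across OXA.

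CDK6 (ENSG00000105810, chromosome 7 from 92604921 to 92836573, minus strand) had 6286, 5236 and 5655 normalized counts in NT and 8348, 7169 and 7284 in OXA. All treated libraries lay above all untreated ones, with means of 5726 ± 529 and 7600.4 ± 650.4. In the unpaired fit this was short of the threshold (log2 fold change 0.41 ± 0.10 SE, edgeR adjusted p = 0.0697). In the paired fit it passed (log2 fold change 0.41 ± 0.048 SE, edgeR adjusted p = 0.00568), the log2 differences between same-numbered libraries being 0.41, 0.45 and 0.37. Of the 6 fits with a library left out, it passed in 1, that without NT library 1, at an edgeR adjusted p of 0.0219. In the others the edgeR adjusted p lay between 0.161 and 0.260.

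Per exon length, CDK4 was the more abundant of the 2 kinase transcripts in every library. Its level was 5.19, 6.64 and 7.20 times that of CDK6 in NT and 4.35, 4.76 and 5.51 times in OXA. This ratio was lower in each OXA library than in the NT library of the same number, but the groups overlapped (log2 difference -0.37, exact two-sided permutation p = 0.2). The 3 D-type cyclins summed to 1.13, 1.24 and 1.06 times the level of CDK4 plus CDK6 in NT and to 1.65, 1.83 and 1.56 times in OXA. Here the groups did not overlap (log2 difference 0.56, exact two-sided permutation p = 0.1).

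CCNE2 (ENSG00000175305, chromosome 8 from 94879770 to 94896678, minus strand) encodes cyclin E2, an activator of CDK2. It had 1471, 1168 and 1316 normalized counts in NT and 598, 506 and 647 in OXA. The highest treated library was far below the lowest untreated one. The mean fell by 55.7%, from 1318 ± 151 to 584 ± 71.6 (log2 fold change -1.17 ± 0.14 SE, edgeR adjusted p = 0.00615). Only 63 of the 13727 genes tested had a more negative log2 fold change. CCNE2 was the only member called in all 6 fits with a library left out, with edgeR adjusted p between 0.00158 and 0.0485. It shares 1629 exonic bases with INTS8 on the opposite strand. INTS8 had 4801 ± 766 normalized counts across NT and 4584 ± 355 across OXA and its groups overlapped (log2 fold change -0.066, edgeR adjusted p = 0.813).

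CCNE1 (ENSG00000105173, chromosome 19 from 29811991 to 29824312, plus strand) encodes cyclin E1, the close relative of cyclin E2. It had 1612, 1467 and 1299 normalized counts in NT and 1447, 1391 and 1290.2 in OXA. The groups overlapped (log2 fold change -0.085, 95% confidence interval from -0.34 to 0.17, edgeR adjusted p = 0.717), and the paired fit gave no call either (edgeR adjusted p = 0.389). The lower end of this interval lies above the upper end of that of CCNE2, -0.86.

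The ratio of the E-type cyclins was higher in OXA in these libraries. Per exon length, CCNE1 was 1.96, 2.24 and 1.76 times as abundant as CCNE2 in NT and 4.32, 4.91 and 3.56 times in OXA. Every OXA value exceeded every NT value, by 2.14-fold on average (log2 difference 1.10, exact two-sided permutation p = 0.1, the smallest possible). CCNE1 thus made up between 63.8% and 69.2% of E-type cyclin transcripts in NT and between 78.1% and 83.1% in OXA. A ratio within a library does not depend on the library factor, so these values are the same under each scaling by 1 factor per library.

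CDK2 (ENSG00000123374, chromosome 12 from 55966781 to 55972789, plus strand) encodes the kinase that E-type cyclins activate. It had 5232, 4562 and 4773 normalized counts in NT and 3807, 3412 and 3908 in OXA. All treated libraries lay below all untreated ones, with means of 4856 ± 342 and 3709 ± 262. The difference missed the threshold in the unpaired fit (log2 fold change -0.39 ± 0.095 SE, edgeR adjusted p = 0.0605) and passed it in the paired fit (log2 fold change -0.39 ± 0.056 SE, edgeR adjusted p = 0.00907), the log2 differences between same-numbered libraries being -0.46, -0.42 and -0.29. The E-type cyclins together were 0.735, 0.734 and 0.673 times as abundant per length as CDK2 in NT and 0.739, 0.775 and 0.668 times in OXA. In this ratio the groups overlapped (log2 difference 0.024, exact two-sided permutation p = 0.8).

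**Figure D2:**
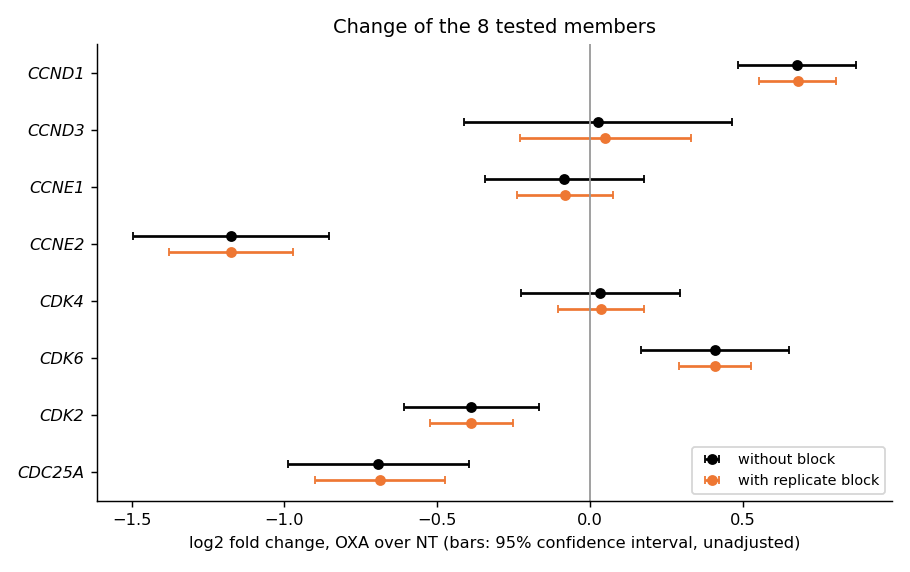
Log2 fold change of OXA over NT (horizontal axis) for the 8 tested members, from edgeR unpaired (black) and paired by library number (orange). Bars are unadjusted 95% confidence intervals. The intervals of CCND3, CCNE1 and CDK4 include 0 in both fits, and those of the other 5 members exclude 0 in both.

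CDC25A (ENSG00000164045, chromosome 3 from 48157146 to 48188417, minus strand) encodes the phosphatase that activates CDK2. It had 2483, 1953 and 1980.3 normalized counts in NT and 1358, 1194 and 1417 in OXA. NT library 1 was the highest of the untreated libraries, and all treated libraries lay below the untreated ones. The mean fell by 38.1%, from 2139 ± 299 to 1323 ± 115 (log2 fold change -0.69 ± 0.13 SE, edgeR adjusted p = 0.0259). The paired fit called it too (edgeR adjusted p = 0.00678). The direction held whichever library was left out, but the call held in 2 of the 6 fits, those without NT library 1 and without NT library 2. In the other 4, without NT library 3 or without 1 of the OXA libraries, the edgeR adjusted p lay between 0.0646 and 0.121.

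CDC25A and CCNE1 are both known as genes that E2F factors transcribe, and in these libraries CDC25A fell while CCNE1 was not called, so the 250 bases before their start sites are shown side by side. They are from RefSeq on GRCh38.p14, written 5′ to 3′ on the strand of the gene, with matches to an E2F motif in capitals.
CDC25A (chr3:48188418-48188667, minus strand): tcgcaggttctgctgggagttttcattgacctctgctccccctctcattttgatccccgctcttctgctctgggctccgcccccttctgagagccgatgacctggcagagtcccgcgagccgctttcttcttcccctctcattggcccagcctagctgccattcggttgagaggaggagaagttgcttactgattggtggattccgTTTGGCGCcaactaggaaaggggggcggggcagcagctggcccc
CCNE1 (chr19:29811741-29811990, plus strand): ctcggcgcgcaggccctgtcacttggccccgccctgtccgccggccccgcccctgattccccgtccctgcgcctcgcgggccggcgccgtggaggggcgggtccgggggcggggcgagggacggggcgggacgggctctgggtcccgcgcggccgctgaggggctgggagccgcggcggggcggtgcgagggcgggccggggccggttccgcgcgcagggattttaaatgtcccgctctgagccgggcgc

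The E2F motif was searched on both strands as TTTCCCGC, TTTGGCGC, TTTCGCGC or TTTGCCGC. Of 27305 such windows, 1 for each gene symbol, 2.79% held a match. CDC25A held TTTGGCGC, beginning 44 bases before the start site, and CCNE1 held no match. The GC box GGGCGG, searched on both strands and found in 42.3% of the windows, was matched 2 times before CDC25A and 7 times before CCNE1, and shared no base with the E2F match. The bases G and C made up 60.0% of the CDC25A window and 81.2% of the CCNE1 window. Of the other members, CCND3, CDK4 and CDK6 had windows too, none with an E2F match in these spellings. No window was found for CCND1, CCND2, CCNE2 or CDK2, so these were not searched. A match is a description of letters, and the lack of a match says only that those letters are not in the window. CDC25A and CCNE1 were paired after their values were seen, and whether a match bears on the change of either gene was not tested.

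Ordered by level per length, in TMM-normalized CPM per kilobase of exon, CCND1 was the most abundant member in NT, at 102 ± 6.06 (SD, n = 3), above 97.7% of the genes tested. It was followed by CDK4 at 81.8 ± 9.53 and CDK2 at 34.7 ± 2.45. Then came CCNE1 at 16.5 ± 1.77, CDC25A at 14.3 ± 2.00 and CDK6 at 13.0 ± 1.20, whose ranges over the NT libraries overlapped from each to the next. CCNE2 at 8.33 ± 0.957 and CCND3 at 6.09 ± 1.49 were the lowest of the detected members.

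In OXA, CCND1 stood at 163 ± 2.56 and CDK4 at 83.7 ± 6.90. CDK2 remained in the next place at 26.5 ± 1.88. CDK6 at 17.3 ± 1.48 now stood beside CCNE1 at 15.5 ± 0.895, with overlapping ranges, and both were above CDC25A at 8.87 ± 0.774. CCNE2, at 3.69 ± 0.453, was below CCND3, at 6.20 ± 0.682, the reverse of their order in NT, and in neither group did the ranges of this pair overlap. These levels rest on exon lengths of GENCODE release 44, which run from 2461 bases for CCNE1 to 12239 for CDK6, and cells may use shorter transcripts of a gene.

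**Figure D3:**
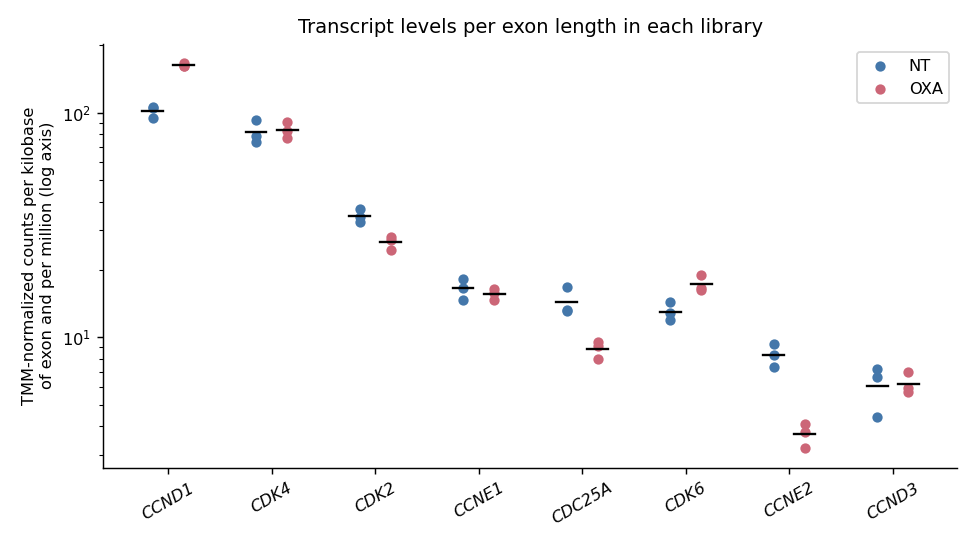
Level per length of the 8 detected members in each library (points) with group means (black bars), on a log axis in TMM-normalized CPM per kilobase of exon. Members are ordered by their mean in NT, from CCND1 to CCND3, and CCNE2 drops below CCND3 in OXA.

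The members were also set against CDKN1A, the transcript of p21. Per exon length, CDKN1A was 0.146, 0.175 and 0.195 times the sum of the 9 members in NT and 1.15, 1.21 and 1.00 times in OXA. The ratio was higher in every OXA library (log2 difference 2.71, exact two-sided permutation p = 0.1, the smallest possible). It carries the rise of CDKN1A itself (log2 fold change 2.93), the gene taken as the check of the treatment. The ratio is therefore no separate result about the members.

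**Figure D4:**
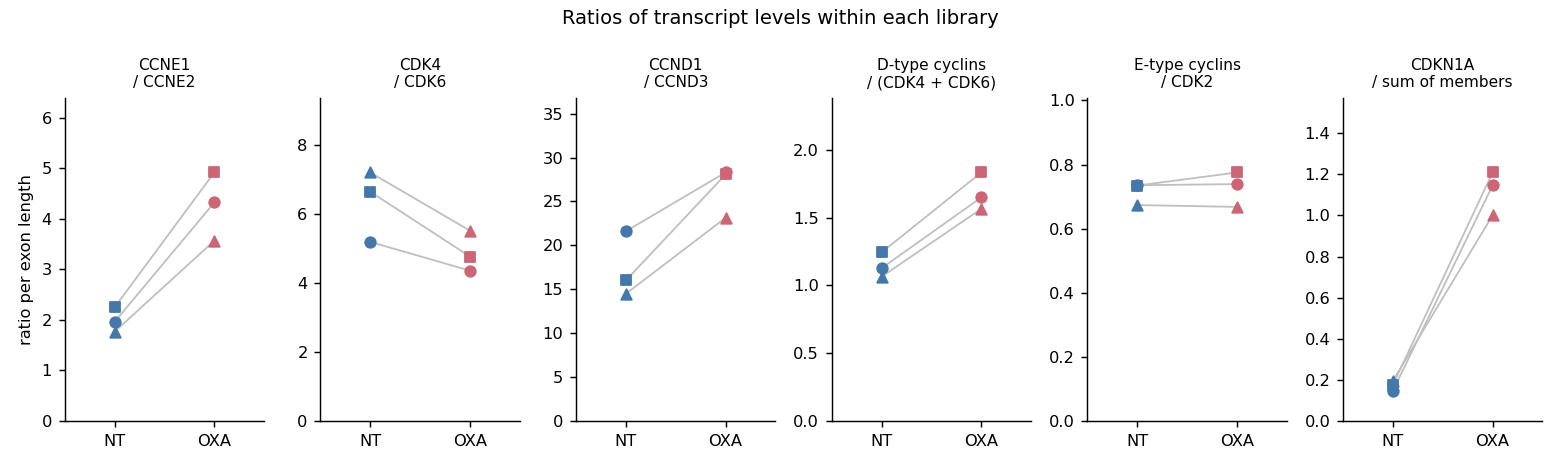
Ratios of levels per exon length within each library (vertical axes, each from 0), with symbols for the library number (circle 1, square 2, triangle 3) and grey lines between libraries of the same number. CCNE1 over CCNE2, CCND1 over CCND3, the D-type cyclins over their kinases and CDKN1A over the members lie higher in all OXA libraries, whereas the groups overlap in CDK4 over CDK6 and in the E-type cyclins over CDK2.

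A list of 60 other genes of the G1 to S transition was read from the same fit. All 60 were in the table and 59 were tested, the exception being CCNA1 with 0 counts. Of the 59, 1 rose and 10 fell, with a median log2 fold change of -0.14 beside 0.023 over all genes tested, of which 2.78% were called higher and 2.29% lower. In the paired fit, 2 were higher and 22 lower, where 12.1% and 10.9% of all genes tested were. In the unpaired fit the number lower was 1 without OXA library 1, 2 without OXA library 2, 6 without NT library 3 and 17 without NT library 1, and the number higher was 2 without NT library 1. The same fits called 19, 32, 69 and 571 of all genes lower, in that order, beside 315 with all libraries. Without NT library 1, 623 of all genes were higher, beside 381 with all libraries. Among the 7 CDK inhibitors, CDKN1A was the only gene called. CDKN1B, which encodes p27, had 1040.4 ± 46.4 normalized counts across NT and 841 ± 85.1 across OXA (edgeR adjusted p = 0.165), and was called lower in the paired fit (log2 fold change -0.31, edgeR adjusted p = 0.0319).

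Among the 13 pocket proteins, E2F and DP factors, 4 fell, where 2.29% of all genes tested were called lower. In normalized counts, E2F1, an activator of S-phase genes, went from 1084 ± 145 to 505 ± 55.5 (log2 fold change -1.10, edgeR adjusted p = 0.00858), and E2F2, another activator, from 1756 ± 199 to 896 ± 127 (log2 fold change -0.97, edgeR adjusted p = 0.0115). RBL1, which encodes the pocket protein p107, fell as well (log2 fold change -0.79, edgeR adjusted p = 0.0112), as did E2F8, a repressor (log2 fold change -0.71, edgeR adjusted p = 0.0126). RB1, which encodes the retinoblastoma protein, was not called (log2 fold change 0.049, 95% confidence interval from -0.24 to 0.34). The paired fit, which called 10.9% of all genes tested lower, called 5 of the 13 lower. It added E2F7, another repressor (log2 fold change -0.31, edgeR adjusted p = 0.0188).

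Of the 4 kinase and phosphatase genes that act on the inhibitory phosphates of CDKs beside CDC25A, WEE1, whose product adds such a phosphate, fell (log2 fold change -0.90, edgeR adjusted p = 0.00845), as did CDC25C, whose product acts at mitosis (log2 fold change -0.55, edgeR adjusted p = 0.0428). CDC25B and PKMYT1 were not called. Of the 4 checkpoint kinases acting on CDC25A, CHEK1 fell (log2 fold change -0.59, edgeR adjusted p = 0.0358), and ATM, ATR and CHEK2 were not called in the unpaired fit. The unpaired fit called 2.29% of all genes tested lower. The paired fit, which called 10.9% lower, called ATR lower as well (log2 fold change -0.32, edgeR adjusted p = 0.0256).

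Of 12 S-phase entry genes that E2F factors transcribe, 3 fell, among them CDC6, a loader of the replicative helicase (log2 fold change -0.86, edgeR adjusted p = 0.00825) and GMNN, which encodes the licensing inhibitor geminin (log2 fold change -0.80, edgeR adjusted p = 0.0130). The unpaired fit called 2.29% of all genes tested lower. In the paired fit, which called 10.9% of them lower, 9 of the 12 were lower. None of the 12 ubiquitin ligase genes and none of the 7 tested genes of the other cyclins and the CDK-activating kinase was called by edgeR in the unpaired fit. Among the ligase genes 2 had an unadjusted p under 0.05, DESeq2 called 1 lower and limma-voom 0, and among the cyclins and kinase genes 2 had an unadjusted p under 0.05 and DESeq2 and limma-voom called 0. Of all genes tested, 21.7% had an unadjusted p under 0.05 in the edgeR fit. DESeq2 called 636 of 12926 genes higher and 635 lower, and limma-voom 375 of 13727 higher and 289 lower. In the paired fit, FBXW7, whose product marks cyclin E for degradation, was higher (log2 fold change 0.38, edgeR adjusted p = 0.0161) and SKP2, whose product marks p27, lower (log2 fold change -0.45, edgeR adjusted p = 0.00853), as were CCNA2 and CDK1 (log2 fold changes -0.36 and -0.36). These last 4 genes, CDKN1B, RB1, E2F7 and the uncalled kinase and phosphatase genes were named after their values were seen.

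**Figure D5:**
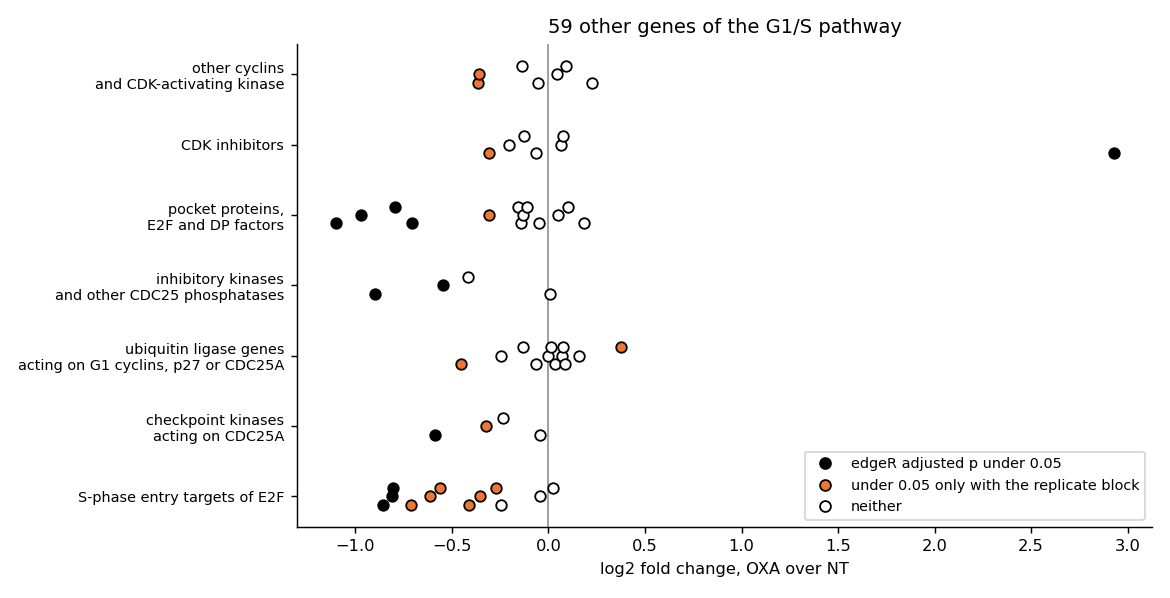
Log2 fold change of OXA over NT (horizontal axis) for the 59 tested genes of the list, grouped by role, with small vertical offsets for legibility. Black points had an edgeR adjusted p under 0.05, orange points only in the fit paired by library number, and open points in neither fit. CDKN1A, at 2.93, is the only black point to the right of 0.

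For the 3 called members, the genes of most similar pattern were sought among 12062 genes with a mean of at least 50 counts, by Pearson's r of log2 normalized values over the 6 libraries. Nearest to CCND1 were SUSD6 and PLD6 (r = 0.9992 and 0.9988), nearest to CCNE2 were STOX1, HADH and IL17RB (r = 0.9994, 0.9993 and 0.9991), and nearest to CDC25A were KIF11, ZNF92 and SCAI (r = 0.9990, 0.9987 and 0.9983). These values are descriptions over libraries that share treatment and scaling, and carry no test. Pearson's r leaves out the size of a change, and SCAI was itself not called (log2 fold change -0.25, edgeR adjusted p = 0.217).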

How the data were processed

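Polyadenylated RNA of 3 NT and 3 OXA libraries was analysed, grouped by the sample labels. Per the labels and the study's methods, the authors mapped reads to GRCh38 with STAR 2.7.5b and used DESeq2 2.13 for normalization and differential expression. The submitters' processing notes also list Trimmomatic 0.32 and RSEM 1.3.3, with no role given. The annotation and strand setting of the counting are not given in the sources used here. The authors deposited a whole-number count per gene and library, which may be a rounded RSEM estimate, and a normalized signal, which is the count times a factor that differs between genes and libraries. The counts were used as deposited, and the signal only for alternatives.

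Genes were filtered with filterByExpr (minimum count 10, minimum total 15), normalized by TMM and tested by edgeR's quasi-likelihood test (edgeR 4.0.16 in R 4.3.3). Adjustment by Benjamini-Hochberg ran over 13727 genes. Alternatives used DESeq2 1.42.0 and limma 3.58.1. Standard errors are the estimate over the square root of F. The fitting steps were also run on simulated counts, the outcome of which is not given here and is not used as support for any result. Ratios within libraries were compared by exact permutation. Exon lengths and positions are from GENCODE release 44, and 99.6% of the tested genes had a length. Library totals were 32979521 to 40967880 counts. Limits for a count of 0 cover counting error only, and PCR duplicates were not distinguishable.

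Deviations of same-numbered libraries from their group means correlated at 0.48, 0.47 and 0.26, all over the limit of 0.1, whereas the other pairs lay between -0.41 and 0.076. The labels do not say what a number stands for.

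The members, the pathway list and the tests were chosen with earlier results of these data known. Genes named are the 9 members, list genes called by edgeR (up to 4 for each role), CDKN1A, and the 3 genes most alike each called member (log2 values with a prior count of 0.5). A few genes that this rule or the marker lists would name are not reported here. Alternatives were other factors, filters and tools, the block, the authors' gene-specific factors and each library left out. RefSeq windows were found for CCND3 (3), CCNE1, CDK4, CDK6 (2) and CDC25A.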

Additional observations from a re-analysis of the deposited data

How the results depend on the processing

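CCND1, CCNE2 and CDC25A kept their direction in all 16 alternatives, and their calls in all but the fits without 1 library that are named beside them. CCNE1 kept its direction and had no call in any of the 16. The count of members called higher was 2 by DESeq2, with the replicate block, and with the authors' gene-specific factors and the block, and 0 to 2 when 1 library was left out, with 0 without OXA library 1. Of all genes, 381 were called higher in the main fit, 636 of 12926 by DESeq2, 1664 with the block and 1317 with the factors and the block. With 1 library left out, 66 to 623 of all genes were called higher. The count of members called lower was 3 with upper quartile factors, with a mean of at least 50 counts, by DESeq2 and in both block fits. It was 1 to 2 when 1 library was left out. Of all genes, 315 were called lower in the main fit, and 493, 365, 635, 1493 and 1167 in the fits with 3 members lower. Upper quartile factors come first in that order and the factors with the block last. With 1 library left out, 19 to 571 of all genes were called lower. CDK2 was called in 5 of 16 alternatives, with edgeR adjusted p of 0.0370 with upper quartile factors and 0.0497 for genes with a mean of at least 50 counts, a DESeq2 adjusted p of 0.0169, and both block fits. CDK6 was called in 4 of 16, which were DESeq2, both block fits and the fit without NT library 1. Small differences turned their sign. CCND3 had a log2 fold change of -0.012 with upper quartile factors, -0.16 without NT library 1 and -0.096 without OXA library 3, and up to 0.14 without NT library 3. CDK4 had -0.0058 with upper quartile factors and -0.033, -0.022 and -0.063 without NT library 1, NT library 2 and OXA library 3, and up to 0.099 without NT library 3. The log2 difference of the E-type cyclins over CDK2 lay between -0.023 and 0.085 with 1 library left out. The other 5 ratios kept their direction in all 8 of their alternatives, pairing of same-numbered libraries included (exact sign-flip test, smallest possible p = 0.25). Of the pathway list, 2 genes were higher with the replicate block and with the factors and the block, and 1 to 2 with 1 library left out. The number lower was 22 with the replicate block, 23 with the factors and the block, and 1 to 17 with 1 library left out. The counts over all genes in these fits are those given above. The cause of these changes, those with the block included, was not tested.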
